A study of Homo sapiens with 6 samples.

Results

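The zinc finger genes of chromosome 19 were taken as the protein-coding genes of that chromosome in GENCODE release 29 whose symbol is ZNF followed by a number, with or without a closing letter. By this rule 246 of the 34913 genes with a transcript in the deposited files were members. The rule uses names and positions only, and no measured value. In the coding sequences of the members' GENCODE transcripts, a pattern for the C2H2 finger occurred 0 to 36 times per gene, with a median of 12. A KRAB box pattern was found in 211 members and not in the other 35.

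C2H2 zinc finger proteins bind DNA through rows of fingers, each of which contacts a few bases, so that the order of fingers sets the sequence that is read. The KRAB domain at the start of most of these proteins binds TRIM28 (KAP1), a scaffold that brings the histone methyltransferase SETDB1, heterochromatin protein 1 and the NuRD deacetylase complex to the bound site. Many KRAB zinc finger proteins silence transposable elements, and their genes sit in clusters on chromosome 19 that arose by repeated tandem duplication.

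THP-1 cells are a suspension line derived from a human acute monocytic leukaemia, and several cell banks supply them. Poly(A) RNA was sequenced from untreated THP-1 cells of the German collection DSMZ (3 libraries) and from untreated THP-1 cells of the American Type Culture Collection, ATCC (3 libraries), to learn how the cells that the banks supply differ. Cells of both banks were grown side by side in RPMI with 20% fetal bovine serum at 37 °C and 5% CO2: they were grown for 48 h after seeding, divided, grown for another 24 h and taken in log phase. The labels call the expansions of a bank independent, but each bank is represented by its own stock, so bank and stock cannot be told apart. P-values rest on the spread between expansions.

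The DSMZ libraries held 23413428 to 37119721 estimated counts, and the ATCC libraries 25632895 to 28198941. Levels are given in CPM, the estimated count relative to the TMM-scaled library total, for comparing a gene between libraries, and in TPM, which accounts for transcript length, for comparing genes with each other. Fold changes are log2, DSMZ minus ATCC. The 11 monocytic markers summed to 1476 to 1656 CPM in DSMZ and to 1326 to 1894 CPM in ATCC, although CD14, which defines monocytes, lay at 0.250 to 0.434 CPM in DSMZ and 0.892 to 1.55 CPM in ATCC. The T cell markers CD3D, CD3E and CD2 summed to 0 CPM in the DSMZ libraries, where a count of 0 allows up to 0.0810 to 0.128 CPM per gene (3 counts, counting error only), and to 0 to 0.0757 CPM in the ATCC libraries. The 3 B cell markers summed to 1.97 to 2.33 CPM in DSMZ and 1.11 to 1.44 CPM in ATCC, and the 3 fibroblast markers to 4.01 to 5.40 CPM in DSMZ and 2.32 to 3.13 CPM in ATCC. The 3 epithelial markers summed to 3.55 to 4.79 CPM in DSMZ and 3.27 to 4.17 CPM in ATCC, and the 2 erythroid markers stayed at or under 0.0713 CPM in each library.

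Members with little G and C in their transcripts were low in ATCC replicate 2, and the members have a lower GC content than tested genes in general. The median GC content of the tested members was 42.8%, against 48.9% over all tested genes. Relative to the mean of ATCC replicates 1 and 3, ATCC replicate 2 was lower in 179 of the 231 tested members, with a median log2 ratio of -0.62, while the median over all genes was 0.02. For this reason the counts of calls over sets and clusters of genes are also given after a correction for GC content within each library and after leaving out ATCC replicate 2.

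**Figure D1:**
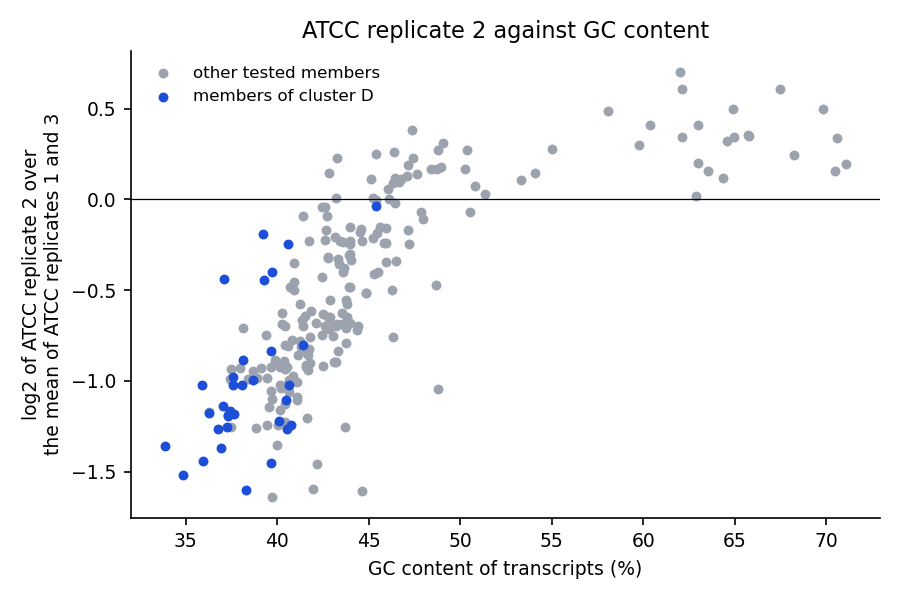
Each point is a tested member, with the GC content of its transcripts in percent on the x axis and, on the y axis, the log2 ratio of ATCC replicate 2 to the mean of ATCC replicates 1 and 3; members of cluster D, the cluster with the lowest GC content (median 38.1%), are in blue. The median of cluster D is -1.14, and the members of highest GC content lie above 0.

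Most members were expressed in both stocks at low levels. Of the 246 members, 231 passed the filter on low counts and were tested, and the 15 others lay at 0 to 0.717 CPM in every library. The median of the tested members' mean levels was 6.15 TPM, 211 of them were above 1 TPM, and the highest was at 94.4 TPM. Together the members took 0.348, 0.373 and 0.397% of the counts in the DSMZ libraries, against 0.432, 0.299 and 0.407% in the ATCC libraries. The ranges overlap, and ATCC replicate 2 was the lowest of the 6. In such bulk RNA, fewer cells with a transcript and less of it per cell cannot be told apart.

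Members called between the stocks made up a smaller share than called genes did over the whole table, a difference that was not tested. The members' mean levels were also lower, with a median of 11.3 CPM against 21.5 CPM over all tested genes. Over the ZNF genes of other chromosomes it was 18.9 CPM. What the level does to the share called was not tested. With edgeR's quasi-likelihood test, 21 members were higher and 35 lower in DSMZ at an adjusted p of 0.05, which is 24.2% of those tested, against a background of 49.8% of all 14577 tested genes (24.1% higher and 25.7% lower). The median log2 fold change was -0.07 over the members and 0.01 over all tested genes, and the median size of the change regardless of sign was 0.29 and 0.47. Changes of at least 2-fold that also passed the test were seen in 8.66% of the tested members (2 higher, 18 lower) and in 21.3% of all tested genes. The 3 libraries of a stock lay wholly above those of the other for 72 members (31.2%; DSMZ above in 32, ATCC above in 40), against 62.3% of all tested genes.

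Part of this gap moved with ATCC replicate 2. With the GC correction 38 members were higher and 71 lower in DSMZ, 47.2% of those tested against a background of 64.5%. Without ATCC replicate 2 the counts were 31 and 88, or 50.9% of 234 tested members against 64.0% of all genes, and with both steps 36 and 83 against 66.3%. The share of the calls that were higher in DSMZ was 37.5% with all 6 libraries, 34.9% with the GC correction, 26.1% without ATCC replicate 2 and 24.6% with upper quartile scaling. Leaving out DSMZ replicate 2 or DSMZ replicate 3 brought the members called higher to 10 and 11. The higher calls over all genes fell in both fits too, from 3515 to 2560 without DSMZ replicate 2. Of the 56 members first called, 20 higher and 34 lower kept their call in all 4 of these fits (with and without each step). Over all alternatives to the main test, 19 for most members, 27 of the 56 (7 higher and 20 lower) kept their call in each, 17 lost it in 1 to 5 and 12 in 6 or more. Of the 175 tested members without a call, 86 were called in at least 1 alternative. The 100 tested members with a GC content at or under 42%, a limit set after the trend was seen, held 2 higher and 11 lower calls, and the 131 above it held 19 and 24. Over all genes at or under that limit, 37.7% were called with 6 libraries and 63.7% without ATCC replicate 2, against 53.2 and 64.1% of the genes above it.

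Related sets of genes had shares between that of the members and that of all genes with 6 libraries. The ZNF genes of other chromosomes, 237 of 263 tested, had 46 higher and 63 lower calls (46.0%, median log2 fold change -0.07), and the other protein-coding genes of chromosome 19, 833 of 1222 tested, had 180 higher and 189 lower (44.3%, median -0.01). The ZNF genes of other chromosomes had 65 higher and 86 lower calls with the GC correction (63.7%, median -0.06), without ATCC replicate 2 59 and 89 (62.2%, median -0.05) and with both steps 64 and 94, or 66.4% against 66.3% of all genes. The other protein-coding genes of chromosome 19 had 300 higher and 220 lower calls with the GC correction (62.4%, median 0.06) and 299 and 194 without ATCC replicate 2 (58.2%, median 0.11), so that their even split with 6 libraries became one with more higher calls. Among the members themselves, those with a KRAB box pattern had 15 higher and 27 lower calls of 199 tested (21.1%), and those without it 6 and 8 of 32 (43.8%). The members without the pattern also had a higher GC content, with a median of 62.1% against 42.5%. With the GC correction 89 of the 199 with the pattern and 20 of the 32 without it were called, and without ATCC replicate 2 these were 101 of 202 and 18 of 32. The number of fingers was much alike in the members called higher (median 11), called lower (11) and not called (12).

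By position, the members fell into 9 clusters, labelled A to I from the short arm to the end of the long arm, where a cluster has at least 5 members and no gap of more than 1 Mb between neighbours. They held 235 members, and 11 lay outside. All positions are those of GRCh38. In cluster A (chr19:2819874-2944971) 2 of 5 tested members were lower in DSMZ and none higher. In cluster B (chr19:7069444-9793180) 1 was higher and 3 lower of 14, and in cluster C (chr19:11483427-12640098) 1 higher and 2 lower of 24. Cluster D (chr19:19668796-24129961) had 1 higher and 7 lower of 33, with a median log2 fold change of -0.35. The 5 members of cluster E (chr19:34677639-34964049) had 2 lower calls. Cluster F (chr19:36182060-37817300) had 2 higher and 5 lower of 24, cluster G (chr19:43525497-45076588) 3 higher and 2 lower of 22, and cluster H (chr19:51571298-53580269) 4 lower of 38 and none higher. Cluster I (chr19:55476332-58481230), near the end of the long arm, had 13 higher and 5 lower of 56, with a median of 0.14. Its 13 higher calls, of the 21 in all, are 23.2% of its tested members, close to the 24.1% of all genes called higher, while the members as a whole had 9.09%. The lower calls of cluster D were 21.2% of its tested members, against 25.7% of all genes.

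**Figure D2:**
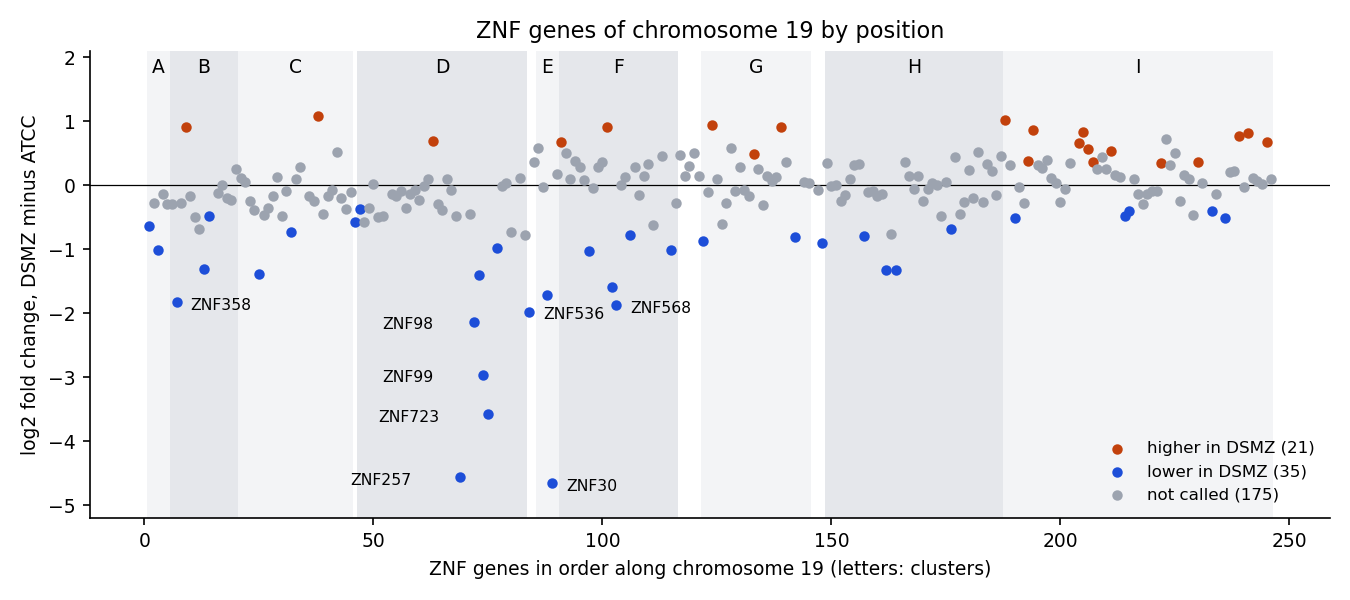
Log2 fold change (DSMZ minus ATCC, y axis) of the 231 tested members in their order along chromosome 19 (x axis), with the 9 clusters shaded and lettered. Of the 21 members higher in DSMZ (orange) 13 lie in cluster I, where they are 23.2% of the tested members against 24.1% of all genes, and the changes below -2 stand in cluster D and at ZNF30 in cluster E.

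Cluster D had the lowest and cluster I the highest median of the 9 clusters with 6 libraries, with the GC correction, without ATCC replicate 2 and with both, though the counts moved. Cluster D had 1 higher and 20 lower calls with the GC correction (median -0.45) and 1 higher and 23 lower of 35 without ATCC replicate 2 (median -0.56). The lower calls were then 60.6 and 65.7% of its tested members, against 32.7 and 32.3% of all genes. Cluster I had 23 higher and 6 lower calls with the GC correction (median 0.18) and 18 higher and 8 lower of 57 without that library (median 0.21). The higher calls were 41.1% of its tested members with the correction, against 31.8% of all genes, and 31.6% against 31.7% without that library. Cluster B had 1 higher and 8 lower calls with the GC correction and 1 and 6 without ATCC replicate 2, and cluster C 1 and 10 and then 1 and 14. Cluster H, with 0 higher and 4 lower calls at first, had 4 higher and 7 lower with the correction and 2 higher and 16 lower without that library. Cluster A kept its 2 lower and 0 higher calls as counts in both fits, and cluster E gained 1 higher call beside its 2 lower ones. Cluster F had 3 higher and 8 lower calls with the correction and 2 and 8 without that library, and cluster G 2 and 5 and then 3 and 6. In clusters F and G the median was above 0 with all 6 libraries (0.12 and 0.06) and below 0 with the GC correction (-0.05 and -0.0014) and without ATCC replicate 2 (-0.09 and -0.07). Protein-coding genes that are no members but lie within the span of cluster I had 7 higher and 2 lower calls of 22 tested, with a median of 0.30, 12 and 3 with the GC correction, and 11 and 2 of 24 without ATCC replicate 2. Within the span of cluster H they had 0 higher and 4 lower calls of 9 in each of these 3 fits.

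**Figure D3:**
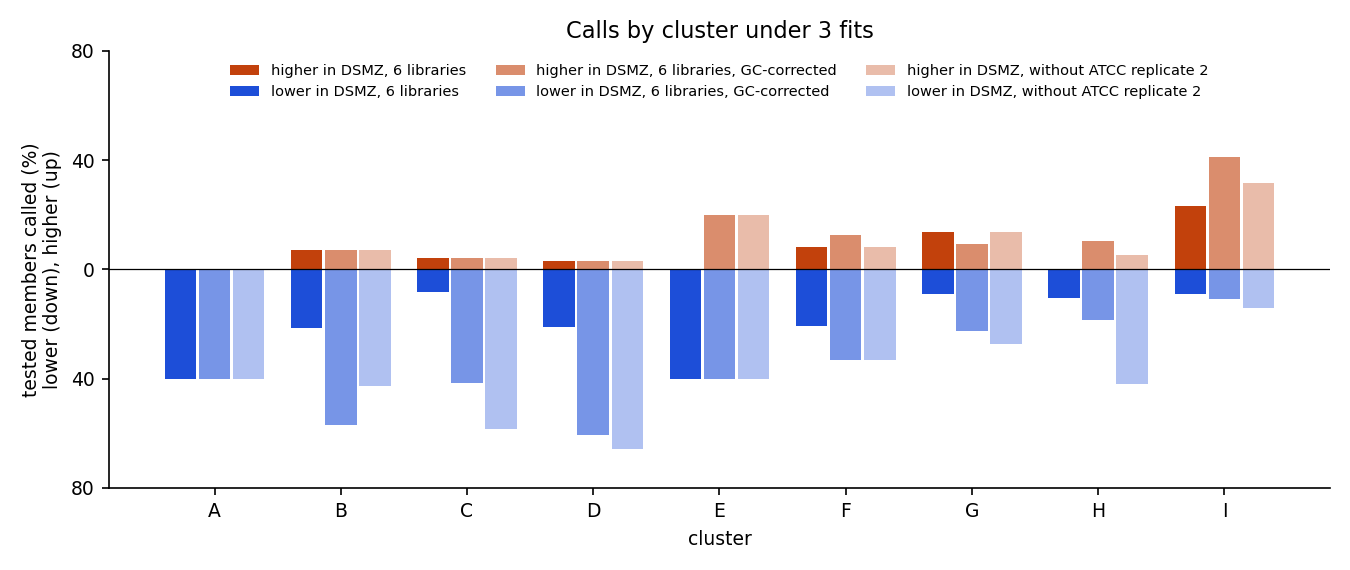
Percent of the tested members of each cluster (x axis) that were called higher in DSMZ (orange, upward) or lower in DSMZ (blue, downward), with 6 libraries, with 6 libraries and the GC correction, and without ATCC replicate 2. Cluster D has 20 or more lower calls in both later fits and 1 higher call in each, and cluster I is the cluster with more higher than lower calls in all 3 fits.

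The lowest members of cluster D formed a stretch of neighbours, chr19:22052452-23147219, that runs from ZNF257 to ZNF730. It was singled out after its values were seen. It holds 9 members: ZNF257, ZNF676, ZNF729, ZNF98, ZNF492, ZNF99, ZNF723, ZNF728 and ZNF730, all C2H2 genes with 10 to 34 fingers. Of the 7 that were tested, 6 were lower in DSMZ, and they remained called with the GC correction, without ATCC replicate 2 and with both. The median log2 fold change of the 7 was -2.13 with 6 libraries, -2.28 with the GC correction and -2.48 without ATCC replicate 2. The 21 tested members of cluster D before this stretch had a median of -0.17 with 1 higher and 1 lower call, and the 5 after it had a median of -0.02 with 0 calls in either direction. After the GC correction 12 of those 21 and 2 of those 5 were lower, with medians of -0.37 and -0.19, and without ATCC replicate 2 these were 15 of 22 and 2 of 6. Of all genes, 25.7% were called lower with 6 libraries, 32.7% with the GC correction and 32.3% without ATCC replicate 2.

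The RefSeq promoter sequences (GRCh38.p14, 250 bases before to 50 after the start) are shown for the members of the stretch that have an entry and differ between the stocks, and then for its neighbours ZNF724 and ZNF91, which were not called, to let the promoters be compared. Capitals mark the letters CTGTCACTC, CCAAT and CTTCCGG on either strand, which do not overlap each other. They were picked after the promoters of cluster D had been looked at.
ZNF257: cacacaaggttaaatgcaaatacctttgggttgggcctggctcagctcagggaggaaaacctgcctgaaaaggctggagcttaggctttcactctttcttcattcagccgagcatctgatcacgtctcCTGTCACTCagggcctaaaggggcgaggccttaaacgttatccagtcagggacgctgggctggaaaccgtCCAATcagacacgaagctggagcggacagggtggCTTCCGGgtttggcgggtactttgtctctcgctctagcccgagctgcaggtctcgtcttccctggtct
ZNF492: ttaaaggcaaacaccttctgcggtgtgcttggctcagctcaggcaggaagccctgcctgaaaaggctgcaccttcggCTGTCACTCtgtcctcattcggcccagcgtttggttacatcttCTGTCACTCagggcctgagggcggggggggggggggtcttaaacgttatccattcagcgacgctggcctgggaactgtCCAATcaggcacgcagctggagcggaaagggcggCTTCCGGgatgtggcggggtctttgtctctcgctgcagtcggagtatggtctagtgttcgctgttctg
ZNF723: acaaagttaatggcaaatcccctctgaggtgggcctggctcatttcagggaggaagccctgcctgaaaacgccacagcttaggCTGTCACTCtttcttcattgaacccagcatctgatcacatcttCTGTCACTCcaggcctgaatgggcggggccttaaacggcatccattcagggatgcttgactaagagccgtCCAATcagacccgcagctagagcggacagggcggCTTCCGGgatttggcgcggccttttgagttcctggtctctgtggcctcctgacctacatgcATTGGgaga
ZNF730: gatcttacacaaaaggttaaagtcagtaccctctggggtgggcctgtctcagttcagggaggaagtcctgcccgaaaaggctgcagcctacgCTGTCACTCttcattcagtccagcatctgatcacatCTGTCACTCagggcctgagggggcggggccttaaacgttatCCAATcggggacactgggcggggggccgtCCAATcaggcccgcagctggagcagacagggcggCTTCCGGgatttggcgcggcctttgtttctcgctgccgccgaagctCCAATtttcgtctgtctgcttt
ZNF724: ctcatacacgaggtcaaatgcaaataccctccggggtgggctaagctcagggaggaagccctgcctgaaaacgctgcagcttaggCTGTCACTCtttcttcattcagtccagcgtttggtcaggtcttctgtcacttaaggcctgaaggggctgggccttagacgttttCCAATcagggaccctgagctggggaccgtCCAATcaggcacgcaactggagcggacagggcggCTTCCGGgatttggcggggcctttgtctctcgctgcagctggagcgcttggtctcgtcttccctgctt
ZNF91: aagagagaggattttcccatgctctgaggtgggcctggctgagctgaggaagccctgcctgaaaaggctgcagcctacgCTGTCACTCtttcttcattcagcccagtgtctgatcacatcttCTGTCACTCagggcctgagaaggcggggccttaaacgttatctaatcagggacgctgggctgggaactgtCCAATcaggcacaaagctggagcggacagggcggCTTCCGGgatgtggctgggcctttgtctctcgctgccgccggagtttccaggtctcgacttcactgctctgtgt
In genome order on the plus strand these lie at chr19:22052234-22052533 (ZNF257), chr19:22634074-22634373 (ZNF492), chr19:22832041-22832340 (ZNF723) and chr19:23116775-23117074 (ZNF730), and on the minus strand at chr19:23250345-23250644 (ZNF724) and chr19:23395422-23395721 (ZNF91). The RefSeq promoter of ZNF730 lies inside the GENCODE span of that gene, which starts upstream of it. Those of ZNF257, ZNF492 and ZNF723 cover the GENCODE start of their gene. The 6 promoters were 75.1 to 83.9% identical in pairs, with 75.1 to 82.4% among the 4 genes called lower and 76.6 to 83.9% between these and ZNF724 or ZNF91. All 6 hold each of the 3 motifs.

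The motifs were common across cluster D, in called and uncalled members. A RefSeq promoter was found for 215 of the 246 members. CTGTCACTC occurred in 26 of the 29 promoters of cluster D (89.7%), in 5.91% of the 186 promoters of other members and in 0.74% of 27305 RefSeq promoters. CCAAT occurred in all 29 (100%), in 46.2% of the other members and in 35.7% of all promoters. CTTCCGG occurred in 72.4, 41.4 and 10.7% of these sets. The promoters of cluster D held a median of 10 CG dinucleotides, against 20 over all members and 14 over all RefSeq promoters. Such matches describe letters and show no binding. Across members the median number of CG was 23 in those called higher, 21 in those called lower and 20 in those not called.

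ZNF257, a KRAB gene with 11 fingers at chr19:22052452-22091480, had 0.371, 0.409 and 0.498 CPM in the DSMZ libraries, against 15.3, 5.10 and 11.4 CPM in the ATCC libraries. Every ATCC library, the low replicate 2 included, was far above every DSMZ library. The log2 fold change was -4.56 (SE 0.47, edgeR adjusted p = 0.000205). It was -4.88 without ATCC replicate 2 and -4.22 without ATCC replicate 1. The change was much smaller with protein-coding transcripts only and in both limma fits, so its size depends on the setting. ZNF257 kept its call in all 19 alternatives.

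ZNF723 (chr19:22832321-22858667, 12 fingers) had 0.531, 0.437 and 0.625 CPM in DSMZ and 7.95, 3.81 and 7.46 CPM in ATCC. Its log2 fold change was -3.57 (SE 0.35, edgeR adjusted p = 0.000166). ZNF99 (chr19:22752183-22784107), whose 26 fingers make a long array, had 0.888, 0.608 and 0.470 CPM in DSMZ and 7.17, 2.14 and 5.46 CPM in ATCC, a log2 fold change of -2.96 (SE 0.49, edgeR adjusted p = 0.00186). In neither gene did the stocks overlap.

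ZNF98 (chr19:22391019-22532485) had 2.44, 2.85 and 3.76 CPM in DSMZ and 19.3, 5.60 and 15.1 CPM in ATCC, with a log2 fold change of -2.13 (SE 0.43, edgeR adjusted p = 0.00495). Its neighbour ZNF492 (chr19:22634324-22667670) had 6.04, 6.28 and 6.52 CPM in DSMZ and 22.3, 9.79 and 17.7 CPM in ATCC, with a log2 fold change of -1.40 (SE 0.28, edgeR adjusted p = 0.00445). These are close copies: 50.1% of the 31-base words of ZNF98 and 54.9% of those of ZNF492 occur in no other gene, and for each the gene that shares the most words is the other. How the estimated counts were divided between them is therefore uncertain, but both were higher in every ATCC library than in any DSMZ library.

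ZNF730 (chr19:23075210-23147219) had 3.95, 4.57 and 5.14 CPM in DSMZ and 12.3, 4.62 and 10.2 CPM in ATCC. Here ATCC replicate 2 fell inside the DSMZ range. The log2 fold change was -0.99 (SE 0.33, edgeR adjusted p = 0.0411) and -1.29 without that library, and the call was lost in 7 of 19 alternatives. The remaining members of the stretch were scarce in both stocks. ZNF729, with 34 fingers, averaged 0.339 ± 0.125 CPM in DSMZ and 0.479 ± 0.294 CPM in ATCC (SD, n = 3 each) and did not pass the test (log2 fold change -0.45, edgeR adjusted p = 0.485). ZNF676 reached 0.327 CPM in DSMZ and 0.404 CPM in ATCC at most, and ZNF728 0.180 and 0.223 CPM. Neither was tested. Among genes of the stretch that are no members, the pseudogene ZNF849P averaged 0.340 ± 0.155 CPM in DSMZ and 1.15 ± 0.669 CPM in ATCC (SD, n = 3 each) and was also lower (log2 fold change -1.70, edgeR adjusted p = 0.0348), with overlapping libraries.

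**Figure D4:**
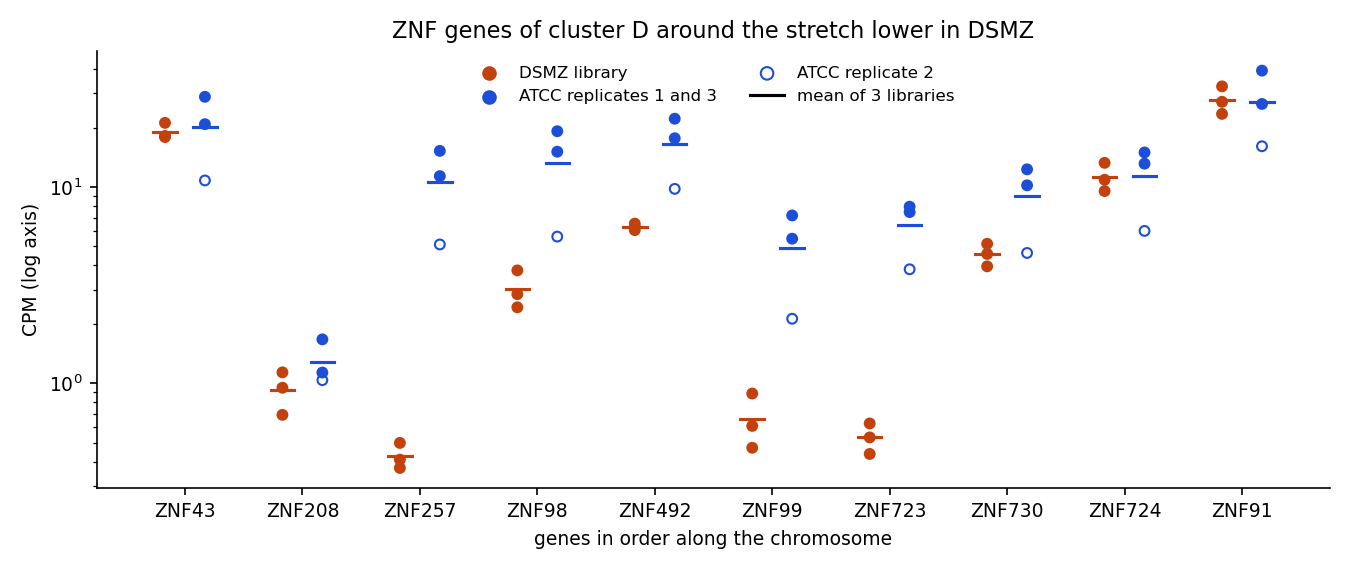
CPM (log axis) of 10 members of cluster D in each of the 6 libraries, in their order along the chromosome (x axis); DSMZ libraries are orange, ATCC libraries blue, ATCC replicate 2 is an open circle and bars are means of 3 libraries. For the 5 genes from ZNF257 to ZNF723 all DSMZ points lie below all ATCC points, while for ZNF43, ZNF208, ZNF724 and ZNF91 on the flanks the ranges overlap.

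The members of cluster D that flank this stretch include known repressors of transposable elements. ZNF91, which represses SVA and some LINE-1 elements, had 23.6, 27.2 and 32.6 CPM in DSMZ and 39.2, 16.1 and 26.5 CPM in ATCC. Its libraries overlapped, and the fold change was 0.03 (edgeR adjusted p = 0.947), with a sign that turned in several settings. ZNF93, a LINE-1 repressor at the other end of the cluster, had 32.6, 39.9 and 45.4 CPM in DSMZ and 74.9, 32.8 and 58.5 CPM in ATCC. It was not called with 6 libraries (log2 fold change -0.50, edgeR adjusted p = 0.183) and was lower in DSMZ with the GC correction (-0.60, edgeR adjusted p = 0.00631) and without ATCC replicate 2 (-0.75, edgeR adjusted p = 0.00155). ZNF675, also known as TIZ, an inhibitor of TRAF6 signalling, behaved in the same way, with -0.74 (edgeR adjusted p = 0.0866) at first, -0.94 with the correction (edgeR adjusted p = 0.000115) and -1.02 without that library (edgeR adjusted p = 0.000375). It was called in 7 of 19 alternatives, DESeq2 and upper quartile scaling with 6 libraries among them. ZNF43 had a log2 fold change of -0.08 (edgeR adjusted p = 0.856) and was likewise lower with the GC correction (-0.28) and without ATCC replicate 2 (-0.36). ZNF738, which has a KRAB box pattern but no finger pattern, was the cluster's single member higher in DSMZ, with 18.4, 19.02 and 19.8 CPM in DSMZ and 12.8, 10.8 and 11.8 CPM in ATCC (log2 fold change 0.69, SE 0.11, edgeR adjusted p = 0.00167).

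Outside cluster D the largest change was that of ZNF30 in cluster E (chr19:34926903-34945170, 16 fingers). It had 0.0869, 0.142 and 0.167 CPM in DSMZ, which are 2, 4 and 6 counts, against 4.03, 2.69 and 3.96 CPM in ATCC. The log2 fold change was -4.66 (SE 0.31, edgeR adjusted p = 3.87e-05), the lowest of all tested members, and 98.2% of its 31-base words occur in no other gene. ZNF599, its neighbour among the tested members, had 0.693, 0.189 and 0.308 CPM in DSMZ and 1.27, 1.12 and 1.32 CPM in ATCC (log2 fold change -1.72, SE 0.40, edgeR adjusted p = 0.00953). At the other end of that cluster ZNF302, among the 5 most abundant members, had 55.9, 52.1 and 62.6 CPM in DSMZ and 46.2, 25.3 and 42.4 CPM in ATCC. Its stocks did not overlap, yet it missed the threshold in the main test (log2 fold change 0.58, edgeR adjusted p = 0.0582). It passed in 13 of 19 alternatives. Among these were DESeq2, both limma fits and the GC correction with 6 libraries, and the fit without ATCC replicate 2 (0.37, edgeR adjusted p = 0.00599).

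In cluster F, ZNF829 and ZNF568 lie head to head, with 37 bases between them, and both were lower in DSMZ. ZNF568, whose mouse counterpart silences a placental promoter of Igf2, had 1.78, 1.90 and 1.95 CPM in DSMZ and 8.78, 4.02 and 7.99 CPM in ATCC (log2 fold change -1.88, SE 0.30, edgeR adjusted p = 0.00157). ZNF829 had 1.59, 1.86 and 2.35 CPM in DSMZ and 7.94, 3.33 and 6.57 CPM in ATCC (log2 fold change -1.60, SE 0.33, edgeR adjusted p = 0.00535). ZNF345, which overlaps ZNF829 on the opposite strand, was higher in DSMZ, with 3.997, 3.97 and 4.22 CPM against 2.77, 1.49 and 2.16 CPM in ATCC (log2 fold change 0.92, SE 0.23, edgeR adjusted p = 0.0120). The call of ZNF345 was lost in both limma fits (0.71 and 0.83). The library kit keeps strand, but a strand setting of the quantification is not stated in these sources, so reads in the shared part may be divided wrongly. ZNF146, a protein of fingers without a KRAB box and the member of highest TPM, had 108, 104 and 113 TPM in DSMZ and 113, 37.8 and 91.0 TPM in ATCC, and was not called (log2 fold change 0.50, edgeR adjusted p = 0.210). It was called higher with the GC correction (0.35), with the replicate block added to it (0.36), with that correction and without ATCC replicate 2 (0.21), and without ATCC replicate 1 (0.77).

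Called neighbours mostly differed in the same direction. With 6 libraries, of the 212 pairs of neighbouring tested members within clusters, 13 had both members called, and in 12 of them the direction was the same, lower in 8 and higher in 4. The discordant pair was ZNF345 and ZNF829. After the GC correction 44 of 51 such pairs went the same way (29 lower, 15 higher), and without ATCC replicate 2 45 of 52 (37 lower, 8 higher). The agreement of neighbouring genes in general, or that due to unequal numbers of higher and lower calls alone, was not worked out. Of the 8 lower pairs with 6 libraries 4 came from the cluster D stretch. The others were ZNF177 with ZNF266, ZNF599 with ZNF30, ZNF829 with ZNF568, and ZNF419 with ZNF773. Of the 4 higher pairs, ZNF580 and ZNF581 overlap on the same strand. The other higher pairs link ZNF264, ZNF805, ZNF460 and ZNF543, in a run chosen after its values were seen. ZNF177 shares 88.4% of its 31-base words with the readthrough gene annotated over it, so its level is uncertain. Of the 56 called members, 34 overlap another annotated gene and 19 a gene on the opposite strand. The overlapping genes include pseudogenes, and the same shares among uncalled members or all genes were not worked out.

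A run of neighbours in cluster I went in the opposite direction. From ZNF264 to ZNF17 (chr19:57191500-57421939), all 8 members were tested and all had a fold change above 0, with a median of 0.49 and a range of 0.25 to 0.83. This stretch, too, was chosen after its values were seen. With 6 libraries 5 were called higher, with the GC correction 7, without ATCC replicate 2 again 5, and 0 were called lower in any of these fits. Of all genes, 24.1, 31.8 and 31.7% were called higher in these fits, and 25.7, 32.7 and 32.3% lower. These members have a median GC content of 45.0%, and their median ratio of ATCC replicate 2 to the other ATCC libraries was -0.19. The median level over the 8 was 10.7, 11.6 and 11.4 CPM in DSMZ and 7.96, 7.96 and 8.89 CPM in ATCC. The 33 tested members beyond ZNF17, out to the end of the cluster, were mixed, with 5 higher and 4 lower calls and a median of 0.09, and the 15 tested members before ZNF264 had 3 higher and 1 lower with a median of 0.27. With the GC correction the members beyond ZNF17 had 9 higher and 5 lower calls and those before ZNF264 7 and 1, and without ATCC replicate 2 these were 6 and 7 and again 7 and 1.

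ZNF805 (chr19:57240685-57255135, 13 fingers) had 5.30, 5.04 and 5.26 CPM in DSMZ and 3.52, 2.30 and 2.93 CPM in ATCC, a log2 fold change of 0.83 (SE 0.18, edgeR adjusted p = 0.00609). ZNF264, which shares more words with ZNF805 than with any other gene, had 40.4, 49.5 and 58.3 CPM in DSMZ and 26.8, 34.8 and 32.7 CPM in ATCC (log2 fold change 0.65, SE 0.16, edgeR adjusted p = 0.0126). Its call was lost without DSMZ replicate 3. ZNF460 had 6.59, 8.56 and 9.59 CPM in DSMZ and 6.53, 4.35 and 5.85 CPM in ATCC, so that its stocks were parted by a narrow margin (log2 fold change 0.57, edgeR adjusted p = 0.0483), and the call was lost in 7 of 19 alternatives. In this run ZNF543 (0.35) and ZNF17 (0.53) were also called, with adjusted p of 0.0422 and 0.0191 by edgeR, calls that were lost in 15 and 4 of 19 alternatives. ZNF304, with 16 fingers, had 19.7, 22.1 and 25.5 CPM in DSMZ and 19.6, 17.6 and 19.7 CPM in ATCC and was not called with 6 libraries (log2 fold change 0.25, edgeR adjusted p = 0.144), though it was with the GC correction (0.26). Past ZNF17, the neighbours ZNF419 (-0.48) and ZNF773 (-0.41) were lower in DSMZ, each in all but 5 of 19 alternatives.

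**Figure D5:**
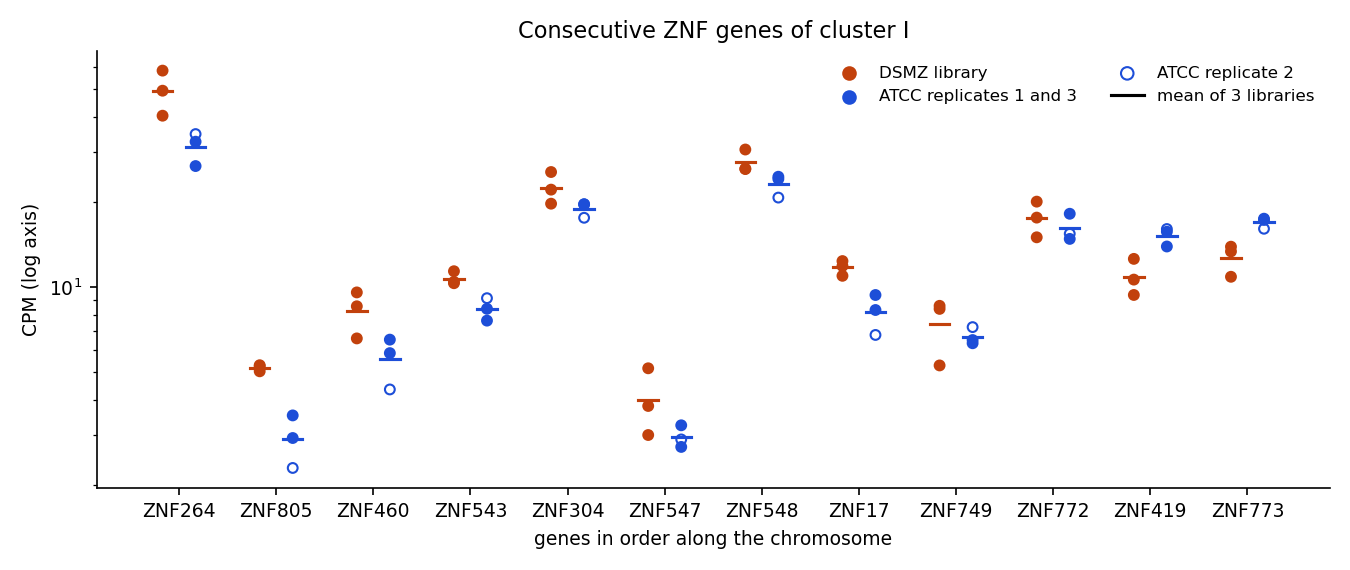
CPM (log axis) of 12 consecutive members of cluster I in each library, in chromosome order (x axis); DSMZ libraries are orange, ATCC libraries blue, ATCC replicate 2 is an open circle and bars are means of 3 libraries. The mean is higher in DSMZ for the 8 genes from ZNF264 to ZNF17, while ZNF419 and ZNF773 at the right have all DSMZ points below all ATCC points.

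Elsewhere in cluster I the members higher in DSMZ were scattered. ZNF628 (chr19:55476332-55484487), a gene of 16 fingers without a KRAB box pattern, had 9.45, 9.69 and 9.17 CPM in DSMZ and 3.95, 5.45 and 4.64 CPM in ATCC. With ZNF563 it made up the 2 members at least 2-fold higher in DSMZ, with a log2 fold change of 1.01 (SE 0.15, edgeR adjusted p = 0.00101), though the call of ZNF563 was lost in 6 of 18 alternatives. ZNF8 had 30.8, 32.1 and 39.2 CPM in DSMZ and 16.9, 21.7 and 21.7 CPM in ATCC (log2 fold change 0.76, SE 0.15, edgeR adjusted p = 0.00394). ZNF581, with 4 fingers, had 13.4, 15.3 and 14.4 CPM in DSMZ and 5.93, 10.7 and 7.17 CPM in ATCC (log2 fold change 0.86, SE 0.21, edgeR adjusted p = 0.0118), and overlaps ZNF580 and CCDC106. Its call was lost without ATCC replicate 3 (0.76) and without DSMZ replicate 2 (0.80). ZNF524 was the lowest member of the cluster at -0.52 (edgeR adjusted p = 0.0319), a call lost in 11 of 19 alternatives, DESeq2 and the fits without ATCC replicate 2 (-0.38), ATCC replicate 3 (-0.57) or any DSMZ library among them.

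Cluster I also holds members with described parts in silencing. ZNF587 and its close copy ZNF417 repress HERV-K elements in human cells. ZNF587 had 101, 107 and 120 CPM in DSMZ and 87.2, 76.6 and 90.2 CPM in ATCC (log2 fold change 0.37, SE 0.11, edgeR adjusted p = 0.0263). This call was lost in 6 of 19 alternatives, among them upper quartile scaling, both limma fits and the fits without ATCC replicate 3, DSMZ replicate 2 or DSMZ replicate 3. ZNF417 had 21.2, 24.7 and 26.8 CPM in DSMZ and 26.2, 20.1 and 25.02 CPM in ATCC (0.03, edgeR adjusted p = 0.876), and the difference between the 2 genes was not tested. Of their 31-base words 54.6% of those of ZNF587 and 49.98% of those of ZNF417 occur in no other gene, so the division of counts between them is uncertain. ZNF274, which brings SETDB1 to the ends of zinc finger genes themselves, had 51.9, 62.4 and 65.5 CPM in DSMZ and 50.7, 52.5 and 52.3 CPM in ATCC. It was not called (log2 fold change 0.21, edgeR adjusted p = 0.164). ZNF787, a high GC member without a KRAB box pattern, had 60.2, 52.4 and 48.0 TPM in DSMZ and 33.8, 51.0 and 44.4 TPM in ATCC. Its fold change of 0.32 did not pass with 6 libraries (edgeR adjusted p = 0.153) and that of 0.52 with the GC correction did (edgeR adjusted p = 0.000377).

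In clusters A to C, ZNF358 (chr19:7515292-7521026), a GC-rich gene without a KRAB box pattern, had 1.20, 1.19 and 0.909 CPM in DSMZ and 3.81, 4.40 and 3.59 CPM in ATCC. Here ATCC replicate 2 was the highest library, and the log2 fold change was -1.83 (SE 0.19, edgeR adjusted p = 0.000202). ZNF556 of cluster A had 11.1, 12.5 and 15.1 CPM in DSMZ and 23.8, 26.0 and 28.4 CPM in ATCC (log2 fold change -1.01, SE 0.14, edgeR adjusted p = 0.000938), while ZNF57 beside it did not pass (-0.15, edgeR adjusted p = 0.374). ZNF491 of cluster C had 0.477, 0.779 and 0.979 CPM in DSMZ and 2.37, 1.78 and 1.89 CPM in ATCC (-1.40, SE 0.27, edgeR adjusted p = 0.00414). Its call was lost in both limma fits (-0.67 and -0.87). Higher in DSMZ were ZNF558 of cluster B, with 19.005, 19.9 and 20.7 CPM against 12.6, 7.33 and 11.7 CPM in ATCC (0.91, SE 0.20, edgeR adjusted p = 0.00637), and ZNF563 of cluster C, which was scarce, with 0.445, 0.676 and 0.590 CPM in DSMZ and 0.283, 0.227 and 0.287 CPM in ATCC (1.09, SE 0.30, edgeR adjusted p = 0.0177). The call of ZNF563 was lost with DESeq2, with both limma fits and without ATCC replicate 3, DSMZ replicate 2 or DSMZ replicate 3. ZNF561 of cluster B, at 25.9 to 35.02 TPM in DSMZ and 28.9 to 36.9 TPM in ATCC among the most abundant members, was not called with 6 libraries (-0.20, edgeR adjusted p = 0.173) and was lower with the GC correction (-0.25, edgeR adjusted p = 0.0199) and without ATCC replicate 2 (-0.26, edgeR adjusted p = 0.0155).

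In cluster G, ZNF428 had 22.3, 22.4 and 21.6 CPM in DSMZ and 9.46, 13.8 and 11.3 CPM in ATCC (log2 fold change 0.94, SE 0.15, edgeR adjusted p = 0.00161); it has a single finger pattern and shares words with SRRM5 on the opposite strand. ZNF235 had 9.02, 9.80 and 9.70 CPM in DSMZ and 5.72, 3.56 and 5.86 CPM in ATCC (0.91, SE 0.20, edgeR adjusted p = 0.00625). Its call was lost in 2 of 19 alternatives, the limma fits (0.39 and 0.42). ZNF575 was lower, with 0.520, 0.566 and 0.528 CPM in DSMZ and 0.811, 1.10 and 1.07 CPM in ATCC (-0.88, SE 0.23, edgeR adjusted p = 0.0156), a call lost in 7 of 18 alternatives: with DESeq2, with both limma fits, without ATCC replicate 3 and without each DSMZ library. ZNF224, a repressor of the aldolase A gene and a partner of WT1, had overlapping libraries and was not called (0.25, edgeR adjusted p = 0.463).

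In cluster H the 4 calls with 6 libraries were lower in DSMZ: ZNF841, ZNF610, ZNF528 and ZNF816, of which ZNF816 lost its call in 8 of 19 alternatives and ZNF841 in 1. ZNF528 had 4.42, 5.43 and 7.13 CPM in DSMZ and 18.0, 9.32 and 15.4 CPM in ATCC (log2 fold change -1.32, SE 0.28, edgeR adjusted p = 0.00546). ZNF610, which lies near it, had 3.20, 2.85 and 3.73 CPM in DSMZ and 10.4, 5.37 and 8.74 CPM in ATCC (-1.32, SE 0.25, edgeR adjusted p = 0.00386). Not called with 6 libraries were ZNF350 (ZBRK1), a BRCA1 partner in repressing damage response genes, at -0.16 (edgeR adjusted p = 0.546), ZNF845, the cluster's highest fold change, at 0.51 (edgeR adjusted p = 0.154), and ZNF331, a gene broken in some thyroid adenomas, at 0.46 (edgeR adjusted p = 0.101). ZNF350 was lower without ATCC replicate 2 (-0.35), ZNF845 was higher with the GC correction (0.38), and ZNF331 was higher with the correction (0.48) and without ATCC replicate 2 (0.26). ZNF175 (OTK18), which curbs HIV transcription in macrophages, had 24.2, 24.2 and 24.1 CPM in DSMZ and 21.3, 14.8 and 21.2 CPM in ATCC: its stocks did not overlap, and the fold change of 0.34 missed the threshold (edgeR adjusted p = 0.103), which it passed with the GC correction (0.33) and without ATCC replicate 2 (0.19).

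Outside the clusters 0 of 10 tested members were called higher and 3 lower with 6 libraries, and 2 higher and 3 lower with the GC correction and without ATCC replicate 2. The 3 first called were ZNF333, ZNF536 and ZNF473. ZNF536, a repressor of neuronal differentiation, had 2.26, 1.91 and 1.53 CPM in DSMZ and 9.63, 5.83 and 6.74 CPM in ATCC (log2 fold change -1.98, SE 0.24, edgeR adjusted p = 0.000458). ZNF473 (ZFP100), a part of the U7 machinery that forms the ends of histone mRNAs, had 22.6, 24.2 and 23.6 CPM in DSMZ and 39.8, 47.4 and 44.0 CPM in ATCC (-0.90, SE 0.11, edgeR adjusted p = 0.000374).

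The genes of a list of corepressors and other cofactors of KRAB zinc finger proteins were mostly higher in DSMZ where they were called. Of 41 listed symbols 40 were matched and 39 tested, and 17 were higher and 3 lower in DSMZ. These are 43.6 and 7.69% of those tested, against 24.1 and 25.7% of all genes. In either direction the share was 51.3% against the background of 49.8%, with a median log2 fold change of 0.31 against 0.01. With the GC correction 24 were higher and 7 lower (61.5 and 17.9%, against 31.8 and 32.7% of all genes). Without ATCC replicate 2 these were 22 and 7 (56.4 and 17.9%, against 31.7 and 32.3%). The higher count was 10 without ATCC replicate 3 and 9, 10 and 11 without DSMZ replicate 1, 2 and 3. The higher calls over all genes also fell in each of these fits, from 3515 to 2560 without DSMZ replicate 2. TRIM28, the scaffold itself, which lies at chr19:58544091-58550722 just past cluster I, had 522, 543 and 525 CPM in DSMZ and 289, 370 and 296 CPM in ATCC (log2 fold change 0.73, SE 0.11, edgeR adjusted p = 0.00127). SETDB1, the methyltransferase that TRIM28 recruits, had 105, 111 and 107 CPM in DSMZ and 119, 137 and 122 CPM in ATCC. It was not called with 6 libraries (-0.23, edgeR adjusted p = 0.0733) and was lower with the GC correction (-0.20, edgeR adjusted p = 0.0153) and without ATCC replicate 2 (-0.16, edgeR adjusted p = 0.0364).

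The 3 genes of this cofactor list with the largest changes were higher in DSMZ. HELLS, a chromatin remodeller needed for DNA methylation, had 76.1, 82.5 and 88.6 CPM in DSMZ and 30.6, 15.3 and 25.9 CPM in ATCC (log2 fold change 1.78, SE 0.24, edgeR adjusted p = 0.000682). SUV39H2, a methyltransferase of histone H3, had 43.6, 47.4 and 47.7 CPM in DSMZ and 21.3, 10.8 and 21.0 CPM in ATCC (1.39, SE 0.25, edgeR adjusted p = 0.00263). PGBD1, a gene derived from a transposase, had 7.03, 7.25 and 7.28 CPM in DSMZ and 3.25, 2.195 and 2.82 CPM in ATCC (1.38, SE 0.17, edgeR adjusted p = 0.000411). The 3 that were lower, named after their values were seen, were SUV39H1 (-1.16, edgeR adjusted p = 0.000247), which is the paralogue of SUV39H2, the methyltransferase gene EHMT1 (-0.97, edgeR adjusted p = 0.000158) and MTA2 of the NuRD complex (-0.37, edgeR adjusted p = 0.0144).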

How the data were processed

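RNA was extracted with TRIzol and RNeasy columns and made into stranded poly(A) libraries with a KAPA kit, per the labels' protocols. The submitters' processing notes name bcl2fastq 2.20, Trimmomatic 0.35, kallisto 0.43.0 and the build GRCh38. The transcript release and strand setting are not given in the sources used here. Per transcript, the deposited files hold the estimated count, not normalized, and the TPM as the authors' kallisto run wrote them, per the file headers.

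Transcripts were assigned to GENCODE 29 genes by identifier (163714 of 179973) or symbol (14219); 2040, with 0.183 to 0.201% of the counts, were left out. Estimated counts were summed per gene and rounded. Genes were tested with edgeR 4.0.16 (R 4.3.3; filterByExpr, TMM, quasi-likelihood F test, source as the only term), with Benjamini-Hochberg adjustment over all 14577 tested genes and a threshold of 0.05. An SE is the size of the log2 fold change over the root of F, and the biological coefficient of variation was 15.9%. The GC correction took a lowess curve (span 0.3) of each library against gene GC content as an offset. Alternatives were other scalings and filters, DESeq2 1.42.0, limma 3.58.1 on log2(TPM + 0.5) and log2(TPM + 0.1), a replicate block, other transcript sets and leaving out each library. The GC correction without ATCC replicate 2 was added after seeing the data. Libraries of a source differed by a chi-square per degree of freedom of at least 3.97, so none was taken for a repeat of another.

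Finger and KRAB box patterns were counted in translated GENCODE transcripts. Promoters are the first RefSeq entry per symbol. Figures were drawn with matplotlib 3.10.9.

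Named members are the 8 highest and 8 lowest called fold changes with stocks that do not overlap and a mean of at least 1 CPM. Named too are the extremes of each cluster, the 5 of highest TPM and 16 fixed genes. From the cofactor list, TRIM28, SETDB1 and the 3 largest called changes are named. Members named as neighbours, in pairs or in runs were chosen after their values were seen. Members, lists and tests were chosen with earlier results of these data known.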

Additional observations from a re-analysis of the deposited data

How the results depend on the processing

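The members called higher in DSMZ (21 with 6 libraries) numbered 38 with the GC correction, 39 with the GC correction and replicate block, 36 with the GC correction and without ATCC replicate 2, and 10 to 31 when each library was left out in turn (10 without DSMZ replicate 2, 11 without DSMZ replicate 3). Those called lower (35) numbered 71, 71 and 83 in the same 3 settings and 24 to 88 with a library left out (88 without ATCC replicate 2). Inside clusters, higher calls (21) numbered 36, 36, 34 and 10 to 29 (11 without DSMZ replicate 3), and lower calls (32) numbered 68, 68, 80 and 21 to 85 (21 without DSMZ replicate 2, 85 without ATCC replicate 2). Genes of the cofactor list called higher (17) numbered 9 to 22 with a library left out. Those called lower (3) numbered 7, 7, 7 and 2 to 7 (7 without ATCC replicate 2). With a library left out, the higher calls over all genes (3515) numbered 2560 to 4717 and the lower calls (3748) 2951 to 4797. Both were lowest without DSMZ replicate 2 and highest without ATCC replicate 2. The cause of these shifts was not tested. All other settings run kept the counts within 1.5 times, upper quartile scaling with 15 higher and 46 lower members included, and the members' median stayed between -0.20 and 0.03. Of the 568 values of 30 called genes under alternatives 523 kept their call, 45 lost it and 0 changed sign. Of the 342 values of uncalled genes 262 stayed uncalled with the same sign, 60 passed the threshold and 20 changed sign.

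Signs that changed belonged to 4 uncalled genes. ZNF43 had 0.02 and 0.0265 with limma on log2(TPM + 0.5) and log2(TPM + 0.1), 0.0233 with the replicate block, and -0.3628 to 0.2509 with a library left out. ZNF91 had -0.0343 with upper quartile scaling, -0.443 and -0.4579 with limma, -0.1856 with the GC correction, -0.187 with the block added, -0.2096 with the GC correction and without ATCC replicate 2, and -0.2253 to 0.3602 with a library left out. ZNF417 had -0.044 with upper quartile scaling, -0.0992 and -0.1022 with limma, -0.0263 with the GC correction and without ATCC replicate 2, and -0.0646 to 0.1094 with a library left out. ZNF224 had -0.0071 to 0.4606 with a library left out.

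Deviations of same-numbered libraries of DSMZ and ATCC correlated at 0.0126, 0.0804 and 0.162, and those of differently numbered ones at -0.103 to 0.0258. Pairing by number, if any, was thus weak, and it was not tested. With the replicate block 20 members were higher and 33 lower. Depth limits the scarce members: the 15 untested ones lay at or under 0.717 CPM, and 13 members have less than 50% of their 31-base words to themselves.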

Other observations

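Within the span of cluster G, 31 other protein-coding genes, 23 of them tested, had 8 higher and 2 lower calls in DSMZ, with a median log2 fold change of 0.29, while the 22 tested members there had 3 higher and 2 lower and a median of 0.06. Within the span of cluster B, 38 of 60 such genes were tested, with 9 higher and 12 lower calls and a median of -0.13, against 1 higher and 3 lower of 14 tested members with a median of -0.26. With the GC correction the other genes had 12 higher and 3 lower calls in the span of cluster G and 11 and 14 in that of cluster B. Without ATCC replicate 2 these were 12 and 2, and 11 and 11. Over all genes, 24.1% were called higher and 25.7% lower with 6 libraries. These shares were 31.8 and 32.7% with the GC correction, and 31.7 and 32.3% without ATCC replicate 2. Differences between the spans, the members and all genes were not tested.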
